A study of Homo sapiens with 10 samples.

Results

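The clustered replication-dependent histone genes encode the H1, H2A, H2B, H3 and H4 proteins that package newly copied DNA. Members were the rows of the deposited count table whose symbol follows the pattern of these families (H1-1 to H1-5, and H2AC, H2BC, H3C or H4C followed by a number), and there were 68 of them among 61587 rows. They comprised 5 H1, 17 H2A, 18 H2B, 13 H3 and 15 H4 genes, with 54 on chromosome 6, 13 on chromosome 1 and 1 on chromosome 12.

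The data were bulk RNA-seq of poly(A)-enriched RNA from RPTEC/TERT1 cells, a line of human proximal tubule epithelial cells immortalised with telomerase. One group of 5 samples received 10 Gy of gamma irradiation and the other group of 5 was mock-irradiated, and RNA was taken from both on day 7. All samples came from one telomerase-immortalised line grown in plastic wells, so the replicates are repeats of an experiment in 1 line and not separate donors. Total counts on genes were between 66269311 and 131555873 per sample.

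Canonical histone mRNAs are made mainly in S phase, when SLBP binds a conserved stem-loop shortly after the stop codon and the transcript is cut there without a poly(A) tail. When DNA synthesis stops, these mRNAs are normally degraded. Some of the genes also yield transcripts that read past the stem-loop and end at an ordinary polyadenylation signal, and such transcripts are known from differentiated and non-dividing cells. Libraries selected on poly(A) therefore do not measure total histone mRNA, and a change in transcription or stability cannot be told apart here from a change in the share that carries a tail.

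Every one of the 68 members held an exact match to the histone stem-loop consensus between 22 and 67 bases after a stop codon (median 35), with 10 different sequences among them. Of 4047 other protein-coding genes on the same chromosomes, 4 held such a match, or 0.099%. The stem-loop is shown for the members on which the results turn, read from GRCh38 with the sequence of the gene's own strand, with the 16 bases of the stem-loop in capitals. H2AC6 lies at chr6:26124664-26124693 on the plus strand, H2BC12 at chr6:27146357-27146386 on the minus strand, H1-2 at chr6:26055735-26055764 on the minus strand, H4C8 at chr6:26285122-26285151 on the minus strand, H4C1 at chr6:26022025-26022054 on the plus strand and H4C3 at chr6:26104312-26104341 on the plus strand.
H2AC6: ccaaaGGCTCTTTTCAGAGCCcccctaccg
H2BC12: ccaaaGGCTCTTTTAAGAGCCacttaaatt
H1-2: caaaaGGCTCTTTTCAGAGCCaccactgat
H4C8: ccaaaGGCCCTTTTCAGGGCCgcccacttt
H4C1: ccaaaGGCCCTTTTCAGGGCCgcccaacta
H4C3: ccaaaGGCCCTTTTCAGGGCCgctcacaaa

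H4C8, H4C1 and H4C3 carried the same 16 bases, and the first of them rose after irradiation while H4C3 fell. The members differed in the annotated transcript after the stem-loop (GENCODE 44). In 17 members the exons ran at least 100 bases further (380 to 4551 bases, median 1487), and 12 of these had a further exon there. In the other 51 the annotation stopped within 18 bases of the stem-loop. AATAAA, the usual polyadenylation signal, stood on the gene's strand in the last 50 annotated bases of 11 of the 17 extended members and of 2 of the 51 others, against 60.1% of the 4047 other protein-coding genes. That search was added after the counts had been seen.

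Few of the genes were well covered. The 68 members held 125217 counts in all 10 samples together, the 10 most counted held 88.95% of them, and H4C7 had no count. There were 25 members with at least 200 counts over the 10 samples, the minimum for the test. H4C1 (232 counts) and H2AC11 (241) lay just inside that limit, and H2BC26 (161) and H2BC7 (159) just outside. Extended members held 62.59% of the counts, and H1-2 and H2BC12, whose annotation ends at the stem-loop, held a further 30.34%. The counts are per gene and do not show where the RNAs ended in these cells. Here and below, ending at the stem-loop or running past it refers to the annotation.

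Among the 25 tested members, 15 were higher and 3 were lower in irradiated cells (edgeR quasi-likelihood test with the replicate as a block, Benjamini-Hochberg adjusted p under 0.05 over all genes). Of all 19006 genes tested, 23.9% were higher and 22.7% lower. The median log2 fold change was 0.58 for the tested members and -0.01 for all genes. All irradiated libraries lay above all control libraries for 13 of the 25 members and below them for 2, against 14.6% and 12.0% of all genes tested. These counts cover only the members that reached the minimum.

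**Figure D1:**
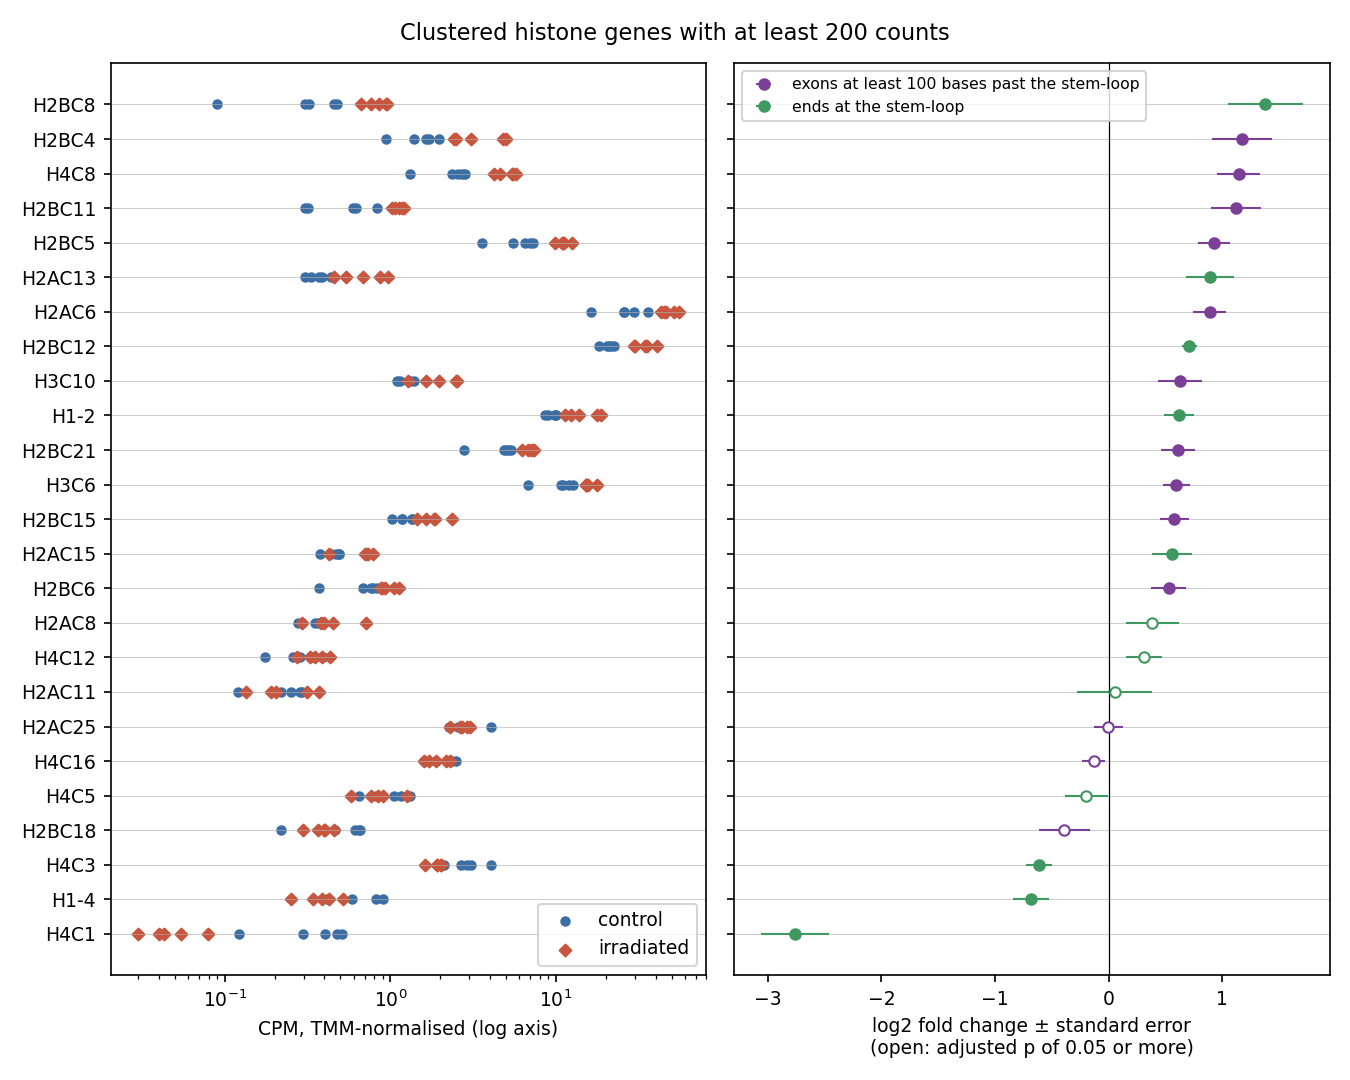
Left, expression in CPM (log axis) of the 25 tested histone genes in each control (circles) and irradiated (diamonds) library. Right, fitted log2 fold change with its standard error, coloured by whether annotated exons run past the stem-loop; 15 genes were higher and 3 (H4C3, H1-4 and H4C1) lower.

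H2A genes encode a partner of H2B in the nucleosome. Levels are given in CPM, each library's counts scaled to its TMM-adjusted total. H2AC6, the member with the most counts, stood at 36.0, 25.8, 16.4, 25.6 and 29.5 CPM in control replicates 1 to 5 and at 55.5, 46.1, 51.7, 42.8 and 44.9 CPM in irradiated replicates 1 to 5. The groups did not overlap, and control replicate 3 was the lowest library. The log2 fold change was 0.89 ± 0.15 (SE, n = 5 pairs, edgeR adjusted p = 0.00214). H2AC13 rose by 0.90 ± 0.21 on the log2 scale (edgeR adjusted p = 0.0106), from 0.366 ± 0.050 to 0.704 ± 0.214 CPM (SD, n = 5), although 52.9% of its 150-base windows also occur in another member, where uniquely mapped reads are lost. H2AC15 was higher by 0.56, a call lost with DESeq2, with library size only and without replicate 1, 2, 3 or 5, while H2AC8, H2AC11 and H2AC25 did not pass the test. H2AC25, on the long arm of chromosome 1, has exons past the stem-loop yet had a log2 fold change of 0.00 (-0.002 ± 0.127), with control replicate 3 at 4.07 CPM above all other libraries.

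Of the H2B genes, 8 of 9 tested members were higher and none lower, beside 23.9% and 22.7% of all tested genes, though H2BC18 was lower without replicate 3. H2BC12 stood at 20.8, 22.4, 21.5, 18.1 and 20.4 CPM in the controls and at 35.3, 34.2, 41.0, 29.8 and 29.5 CPM in the irradiated libraries. No control reached the lowest irradiated library, and the controls lay close together. Its log2 fold change was 0.71 ± 0.06 (edgeR adjusted p = 0.000134, n = 5 pairs). Per kilobase of exon H2BC12 had the highest mean level of these genes in the controls, at 41.7 CPM per kb, against 15.99 for H2AC6 and 12.9 for H1-2. The divisor was the whole annotated exon length. It was 495 bases for H2BC12 and 1668 for H2AC6, of which 1128 lie past the stem-loop. The counts do not show which transcripts of H2AC6 the cells made, so the order depends on the annotation.

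H2BC8 had the largest rise among called members. It stood at 0.306, 0.322, 0.0897, 0.455 and 0.479 CPM in controls and at 0.939, 0.956, 0.853, 0.762 and 0.667 CPM after irradiation. The groups did not overlap and control replicate 3, with 9 counts, was again the lowest. The log2 fold change was 1.38 ± 0.33 (edgeR adjusted p = 0.0108). H2BC8 ends 18 bases past the stem-loop in the annotation.

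H2BC4 stood at 1.65, 1.38, 0.937, 1.97 and 1.71 CPM in controls and at 4.975, 2.434, 4.795, 3.06 and 2.49 CPM in irradiated libraries, a log2 fold change of 1.17 ± 0.26 (edgeR adjusted p = 0.00834). The groups were apart, and irradiated replicates 1 and 3 were well above the other irradiated libraries. Exons of other genes on the opposite strand cover 30.9% of its exon length, and the counts behave as unstranded, so reads there are lost. H2BC11 rose by 1.12 ± 0.22 (edgeR adjusted p = 0.00479) and H2BC5 by 0.93 ± 0.14 (edgeR adjusted p = 0.00138) on the log2 scale. H2BC21, H2BC15 and H2BC6 rose by 0.61, 0.58 and 0.53, and the call of H2BC6 was lost with no replicate block and without replicate 1 or 4. H2BC18 stood at 0.520 ± 0.185 CPM in controls and 0.385 ± 0.058 in irradiated cells (SD, n = 5), which did not pass the test (log2 fold change -0.39, edgeR adjusted p = 0.183). Among the controls, replicate 3 was lowest at 0.219 CPM and the rest spanned 0.465 to 0.655 CPM. Without replicate 3, H2BC18 was lower (log2 fold change -0.61 ± 0.14, edgeR adjusted p = 0.0111).

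Both tested H3 genes were higher, beside 23.9% of all tested genes. H3C6 stood at 11.99, 12.65, 6.75, 10.68 and 10.96 CPM in controls and at 15.1, 17.8, 15.1, 15.6 and 15.1 CPM after irradiation, without overlap. Its log2 fold change was 0.60 ± 0.12 (edgeR adjusted p = 0.00445). H3C10 rose by 0.63 ± 0.19 (edgeR adjusted p = 0.0290), although irradiated replicate 4 lay within the control range and the call was lost without replicate 1, 3 or 5.

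Of 6 tested H4 genes, 1 was higher and 2 lower, shares not far from those of all genes tested. H4C8, which has exons past the stem-loop, stood at 2.35, 2.84, 1.32, 2.54 and 2.72 CPM in controls and at 5.77, 5.53, 5.45, 4.20 and 4.59 CPM in irradiated libraries. The groups were apart, with a log2 fold change of 1.14 ± 0.19 (edgeR adjusted p = 0.00224). H4C3, which ends at the stem-loop, went the other way, from 2.12, 2.68, 4.04, 2.89 and 3.05 CPM to 1.62, 1.93, 2.03, 2.01 and 1.91 CPM. Every irradiated library lay below every control, and the log2 fold change was -0.61 ± 0.11 (edgeR adjusted p = 0.00310).

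H4C1 had the lowest fitted log2 fold change of the tested members, and it reached the minimum through the controls alone, with 210 counts there and 22 in the irradiated libraries, so it was tested only because of the group in which it was high. Its counts were 10, 71, 30, 51 and 48 in controls and 4, 2, 4, 5 and 7 in irradiated libraries, or 0.122 to 0.508 CPM against 0.0299 to 0.0792 CPM. The groups were apart, but at 2 to 7 counts a library the irradiated level is loosely set. The log2 fold change was -2.76 ± 0.30 (edgeR adjusted p = 0.000283). Leaving out replicate 2, 3, 4 or 5 and applying the minimum of 200 counts again took H4C1 out of the test. H4C5, H4C12 and H4C16 did not pass the test, and 89.5% of the windows of H4C12 are shared with another member.

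Linker histones of the H1 group bind DNA between nucleosomes. H1-2 rose from 9.81, 8.96, 8.54, 9.94 and 9.84 CPM to 18.7, 13.7, 17.7, 11.4 and 12.3 CPM. The groups were apart and irradiated replicates 1 and 3 were the highest. The log2 fold change was 0.62 ± 0.13 (edgeR adjusted p = 0.00660). H1-4 fell in all 5 pairs, from 0.629 ± 0.226 to 0.386 ± 0.099 CPM (SD, n = 5), with overlapping groups and a log2 fold change of -0.68 ± 0.16 (edgeR adjusted p = 0.00960). With no replicate block the H1-4 call was lost (edgeR adjusted p = 0.0556).

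H1-1, H1-3 and H1-5 were under the minimum. H1-5 had 4, 36, 6, 29 and 24 counts in controls and 0, 0, 3, 4 and 1 after irradiation. Control replicates 1 and 3 were the lowest of the controls, yet the groups did not overlap in CPM. In the fit with a minimum of 1 count its log2 fold change was -3.09 ± 0.52 (edgeR adjusted p = 6.88e-05), a fitted value that rests on few counts. H1-1 and H1-3 had lower values after irradiation in 4 of 5 pairs without passing the test in that fit (log2 fold changes -0.87 and -0.91).

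The tested members were split by annotated transcript end. Of 13 tested members with exons past the stem-loop, 10 were higher and none lower (median log2 fold change 0.61, range -0.39 to 1.17), and without replicate 3 an extended member, H2BC18, was also lower. Of 12 that end at the stem-loop, 5 were higher (H1-2, H2BC12, H2BC8, H2AC13 and H2AC15) and 3 lower (median 0.35, range -2.76 to 1.38). Of all tested genes 23.9% were higher and 22.7% lower, so the 3 lower are near the latter share, and one of them, H4C1, which sets the low end of the range, reached the minimum only through its control counts. The difference between the classes was not tested. With a minimum of 1 count, where 10.2% of all genes were higher and 11.2% lower, the 50 fitted members that end at the stem-loop had a median of -0.71 (6 higher, a share near that of all genes, and 9 lower), the 17 extended members a median of 0.56 (10 higher, none lower) and all 67 members a median of -0.17.

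The minimum was then lowered to include members with few counts. With a minimum of 1 count, 67 members were tested, and 16 were higher and 9 lower, against 10.2% higher and 11.2% lower of 44263 genes. The members lower in addition were H1-5, H3C2, H3C3, H2AC16, H2BC17 and H2AC20, which end at the stem-loop as do 39 of the 43 members under 200 counts, and the member higher in addition was H4C11, which shares 88.8% of its windows with another member. Of the 42 members with 1 to 199 counts, 31 had a log2 fold change below 0 (median -0.78), against 50.1% of all genes in that fit (median -0.002). Of these 42, 6 were called lower, a share near that of all genes.

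**Figure D2:**
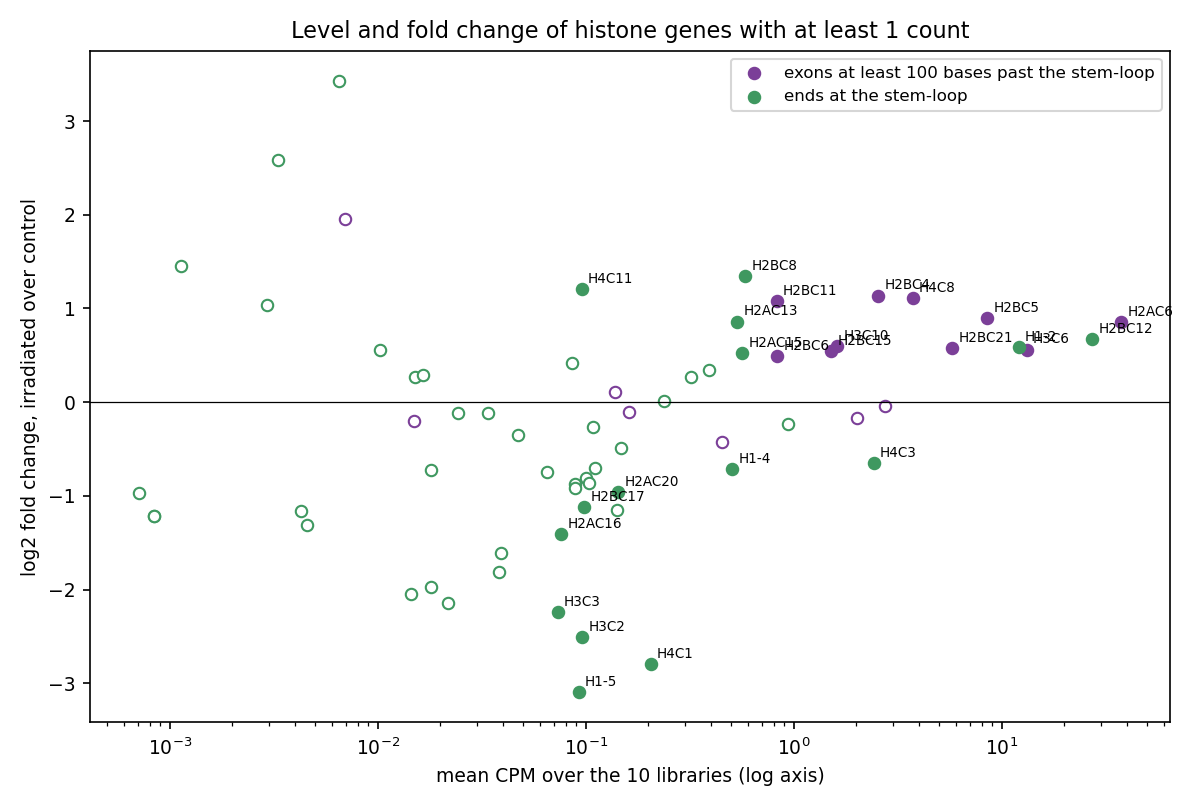
Mean CPM over the 10 libraries (log axis) against log2 fold change for the 67 histone genes with at least 1 count, from the fit with a minimum of 1 count. Filled points had an adjusted p under 0.05 (16 higher, 9 lower); the genes with the most counts lie mostly above 0, and the called falls other than H4C3 lie below 1 CPM.

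Summed over all 68 members, the level was 100.8 ± 12.2 CPM in controls and 158.5 ± 15.9 CPM in irradiated libraries (SD, n = 5), higher in 5 of 5 pairs. The 17 extended members went from 61.1 ± 12.02 to 101.8 ± 8.57 CPM. H1-2 and H2BC12 together went from 30.1 ± 1.24 to 48.7 ± 7.64 CPM. The other 49 members that end at the stem-loop, a set formed after the values were seen, went from 9.58 ± 1.996 to 7.91 ± 0.57 CPM, with 1 pair higher. These sums are descriptions and were given no test.

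The control libraries were not alike in their S phase genes. The 26 genes of that list (replication licensing, nucleotide supply and fork genes such as RRM2, CDC45 and CDT1) summed to 533.7 and 517.5 CPM in control replicates 1 and 3, to 1127, 1080 and 1071 CPM in control replicates 2, 4 and 5, and to between 445.8 and 519.9 CPM in irradiated libraries. The 39 members under 200 counts that end at the stem-loop were split in the same way, at 1.33 and 1.31 CPM in control replicates 1 and 3 and at 3.39, 4.06 and 3.06 CPM in control replicates 2, 4 and 5, against 1.08 to 1.66 CPM after irradiation. In pairs 1 and 3 this sum was higher in the irradiated library. The sum of the extended members was not split in this way, since control replicate 1 had the highest control sum (72.7 CPM) and control replicate 3 the lowest (41.0 CPM). H2AC6 alone gave 36.0 and 16.4 CPM of these sums. Single extended members differed. For H2BC11, H3C10, H4C8 and H2BC21, control replicates 1 and 3 were the lowest controls. For other tested extended members, such as H2BC4 and H2BC5, they were not. The part of the S phase level in the histone results was not tested.

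**Figure D3:**
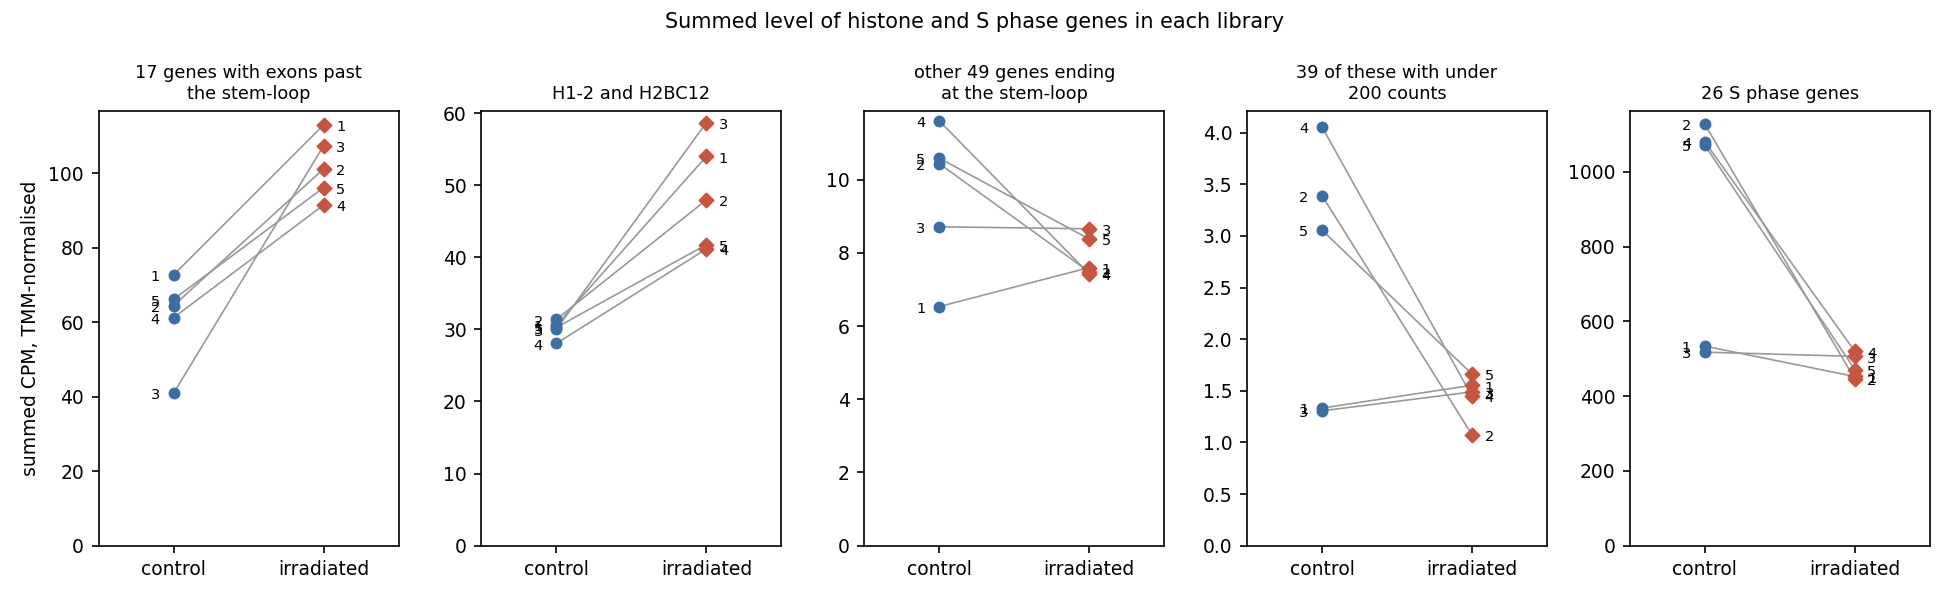
Summed CPM per library, with lines joining libraries of the same replicate number. The 17 genes with exons past the stem-loop and the pair H1-2 and H2BC12 rose in 5 of 5 pairs, whereas the low-count genes and the 26 S phase genes were low in control replicates 1 and 3 already.

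The S phase genes and the genes that handle histone proteins were compared with the 22.7% of all tested genes called lower and the 23.9% called higher. Of 26 S phase genes, 22 were lower and none higher (median log2 fold change -0.86), with RRM2, a ribonucleotide reductase subunit, at -1.76, CDC45, part of the replicative helicase, at -1.59, and CDT1, a licensing factor, at -1.44. Without replicates 2, 4 or 5 the number lower was 14, 11 or 10. Of 18 chaperones and related factors, 13 were lower and 1, ASF1A, higher (median -0.27). ASF1B, a chaperone of new H3 and H4, fell from 20.8 ± 9.23 to 4.69 ± 0.73 CPM (SD, n = 5; log2 fold change -2.03 ± 0.29, edgeR adjusted p = 0.00112), and HJURP, the chaperone of CENPA, had a log2 fold change of -2.02. The chromatin assembly subunits CHAF1A and CHAF1B fell by 0.83 and 1.06, and NASP, which binds soluble histones, by 0.72 on the log2 scale. For ASF1B, HJURP, CHAF1A, CHAF1B and NASP, control replicates 1 and 3 were the lowest controls, as for the summed S phase genes. ASF1B stood at 10.5 and 10.9 CPM in these, against 26.7, 28.2 and 27.7 CPM in control replicates 2, 4 and 5.

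Of 16 factors that produce histone mRNA, 5 were lower (SLBP, CASP8AP2, SRRT, NPAT and SYMPK) and CSTF2 was higher (median -0.06). The share lower is close to the 22.7% of all tested genes and is no result about the list. SLBP, which binds the stem-loop, stood at 55.7, 58.1, 71.9, 65.9 and 66.4 CPM in controls and at 49.6, 45.4, 54.8, 50.6 and 47.4 CPM in irradiated libraries, without overlap (log2 fold change -0.36 ± 0.05, edgeR adjusted p = 0.00115). NPAT, the activator of histone gene transcription, fell by 0.19, a call lost without replicate 4 or 5, and CASP8AP2, a component of the histone locus body, by 0.31. CSTF2, a cleavage factor also used for polyadenylation, rose by 0.28, a call lost in several alternatives. Of 7 decay factors 1 was lower, TUT4, a uridyl transferase (-0.29), a share below the 22.7% of all genes, and 2 were lower with library size only. ERI1, the exonuclease that trims the stem-loop end, had a log2 fold change of 0.02 (edgeR adjusted p = 0.845).

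Replication-independent histone genes are generally expressed outside S phase too, and their mRNAs mostly carry poly(A) tails. Of 11 tested, 9 were lower and none higher (median log2 fold change -0.39), beside 22.7% and 23.9% of all tested genes. H3-3B and H3-3A, which encode the H3.3 variant, fell by 0.20 (a call lost without replicate 4 or 5) and 0.39, H2AX, the variant phosphorylated at DNA breaks, by 0.86, and CENPA, the centromeric H3, had a log2 fold change of -2.47 and was also lower. H1-10, H2AZ1 and H2AJ fell by 0.89, 0.62 and 0.32, and MACROH2A1 had a value of 0.03 that did not pass the test. For CENPA, H2AX and H2AZ1, control replicates 1 and 3 were again the lowest controls.

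**Figure D4:**
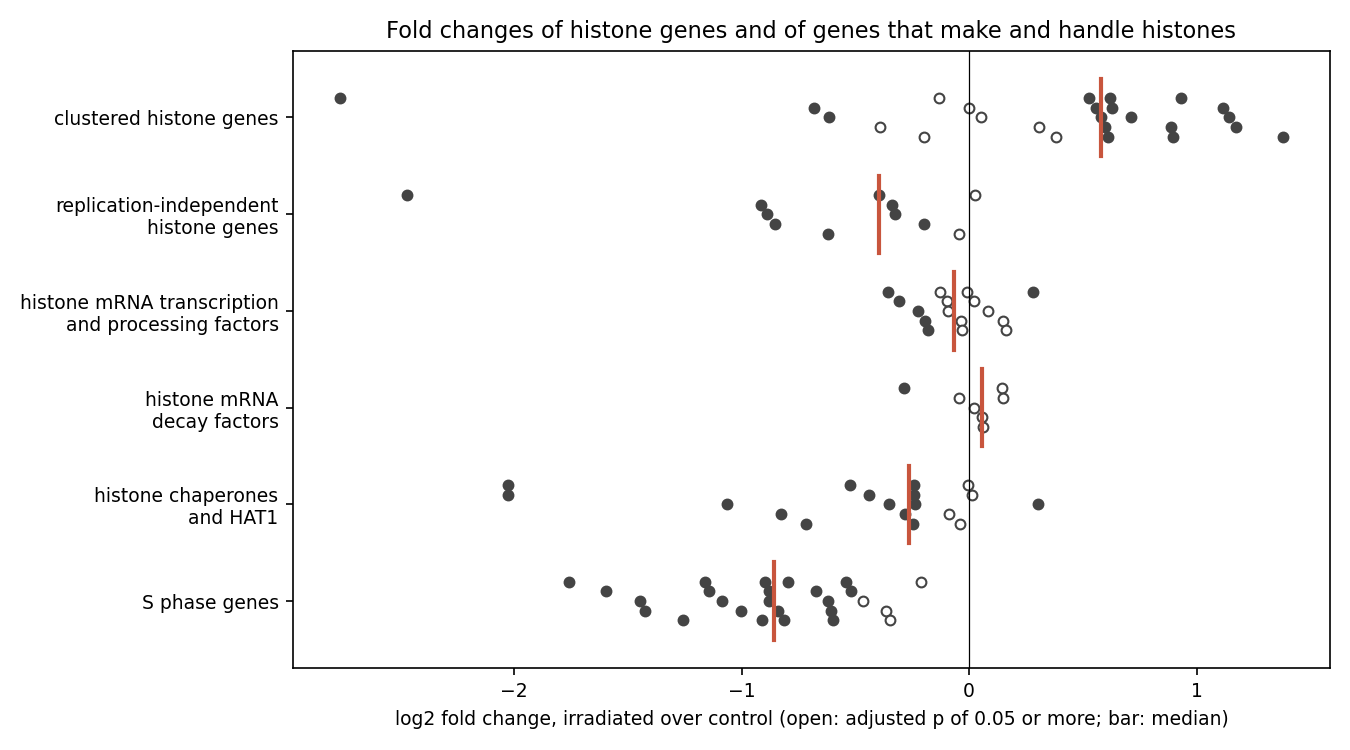
Log2 fold changes of the tested clustered histone genes and of 5 lists of genes that make, handle or accompany histones; filled points had an adjusted p under 0.05 and the bar is the median. The clustered genes have a median of 0.58, while the replication-independent histones (-0.39), the chaperones (-0.27) and the S phase genes (-0.86) lie below 0.

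RNAs that normally lack a poly(A) tail were examined as a measure of untailed RNA in the libraries. RN7SL1, the RNA of the signal recognition particle, stood at 178.7, 156.2, 162.6, 167.8 and 118.2 CPM in controls and at 246.3, 199.3, 286.1, 261.8 and 258.9 CPM in irradiated libraries, without overlap (log2 fold change 0.68 ± 0.11, edgeR adjusted p = 0.00162). RN7SK, RMRP and RPPH1 were listed at 0 in every library. Whether reads on these genes could be counted was not checked, so the 0 values are no measure of untailed RNA. The snRNA genes RNU4-1 and RNU4-2 had log2 fold changes of 0.43 and 0.48 that did not pass the test. Without replicate 4, all 3 tested RNAs of this list were called higher. RN7SL1 thus moved with the histone rise, and its part in the result was not tested.

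Of the tubule and epithelial markers 1 of 11 tested was higher (KRT19, a keratin, by 0.69) and 2 lower (CDH1, E-cadherin, and AQP1, a water channel, by 0.18 and 0.61). Neither share is above that of all tested genes, 23.9% higher and 22.7% lower, so these counts are no result about the list. The CDH1 call was lost with no replicate block and without replicate 1, 2, 3 or 5. PAX8 stood at 533.0 and 594.4 CPM and EPCAM at 288.7 and 317.7 CPM in control and irradiated cells, whereas LRP2, which defines the mature proximal tubule, was nearly absent (17 counts over all samples). Other markers of the list were expressed, with ANPEP at 247.8 and 295.8 CPM and MME at 22.8 and 15.7 CPM. GGT1 stood at 10.0 and 12.5 CPM and CUBN at 4.37 and 4.76 CPM, and none of ANPEP, MME, GGT1 and CUBN passed the test. Of 9 markers of other cell types 4 of 6 tested were higher, beside 23.9% of all tested genes. The 4 were CDH5, DCN, COL1A1 and PECAM1, by 2.48, 2.36, 0.78 and 0.72. VWF did not pass the test (log2 fold change -0.015, edgeR adjusted p = 0.966). PDGFRB, with 49 counts, was under the minimum and had a value of -0.17 in the fit with a minimum of 1 count. The 9 summed to 25.4, 22.6, 22.4, 18.8 and 17.9 CPM in controls and to 38.7, 41.4, 46.6, 36.7 and 33.8 CPM after irradiation, most of it COL1A1, and the leukocyte markers PTPRC, CD68 and CD3E had 312, 27 and 3 counts (PTPRC log2 fold change 0.27, edgeR adjusted p = 0.283). Their part in the histone result was not tested.

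Many H2A and H2B genes sit head to head, in 12 pairs with start sites 169 to 250 bases apart. By annotated start, H3C12 and H2BC17 form a further pair 318 bases apart. That start of H3C12 lies inside H2AC17, whose exons cover 40.33% of the exon length of H3C12. The further pair therefore overlaps the pair of H2AC17 and H2BC17 and is not a separate promoter. In 4 of these 13 pairs both members were tested, and in 2 of them, H2BC4 with H2AC6 and H2AC15 with H2BC15, both were higher, the call of H2AC15 being the unsteady one given above. In 7 pairs the counts of the partners differed more than 5-fold, most of all for H2BC12 (26298 counts) and H2AC12 (44 counts). Among these pairs, exons of another gene on the same strand cover 85.29% of H2AC7 (5 counts) and 71.05% of H2AC17 (15 counts). Reads there can be lost in the count, so these low counts need not mean low expression. H2BC21 rose by 0.61 while its partner H2AC20 was lower in the fit with a minimum of 1 count (-0.96).

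The shared promoters were searched for 3 short motifs after the counts had been seen, in the 300 bases around each start (RefSeq, GRCh38.p14, both strands, 63 of 68 members matched). The octamer ATTTGCAT, the site of OCT1 in H2B promoters, was found in 14 of 18 H2B and 11 of 16 H2A promoters, and in none of the H1 or H4 promoters, against 1.80% of 27305 promoters. Most of the H2A matches are the same site as the match of the head-to-head H2B partner, so the H2A and H2B shares are not independent. Among the 11 H3 genes the only match, for H3C4, is the octamer between H2AC7 and H2BC7, reached through a second RefSeq start of H3C4 far upstream of the gene model used here. CCAAT was found in 53 of the 63 and in 35.7% of all promoters, and TATAAA in 42 of the 63 and in 11.95% of all. The octamer is shown in capitals for H2BC12 (chr6:27146886-27146915, minus strand), which rose, for the stretch between H2BC4 and H2AC6 (chr6:26124031-26124060, minus strand), where both rose, and for that between H2BC21 and H2AC20 (chr1:149886710-149886739, minus strand), where the partners differed.
H2BC12 promoter: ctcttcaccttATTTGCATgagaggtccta
H2BC4 and H2AC6 promoter: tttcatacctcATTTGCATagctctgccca
H2BC21 and H2AC20 promoter: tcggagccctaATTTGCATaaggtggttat

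The octamer was present both beside members that rose and beside members that did not pass the test or had few counts, such as H2BC18 and H2BC3. Near-identical copies limit some values further, since 11 members share over 50% of their 150-base windows with another gene of the set. Among the 57 members below that share, 14 of the 23 tested were higher and 3 lower, beside 23.9% and 22.7% of all tested genes.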

How the data were processed

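The authors trimmed reads with Trim-Galore, aligned them to GRCh38 with STAR and counted uniquely mapped reads on GENCODE genes, and the table they deposited holds raw read counts. The annotation release is not given in the sources used here. The labels and the methods name different library kits, and the cell line field of the labels counts upward over the samples, which was read as 1 line. Genes with at least 200 counts over 10 samples were tested in R 4.3.3 with edgeR 4.0.16 (TMM, glmQLFit, glmQLFTest, replicate as a block as in the study's model, Benjamini-Hochberg, threshold 0.05). CPM are counts scaled by the TMM-adjusted library size of each sample. SE is the log2 fold change over the square root of F. Same-numbered samples deviated together (r 0.217 to 0.508 in the 5 pairs, against -0.354 to 0.317 for different numbers, median -0.13), so the numbers were taken to pair them. Nothing states that replicates are separate cultures, so p-values measure the spread between these samples.

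Gene models and stem-loops came from GENCODE 44 and hg38, promoters from RefSeq; 65 of 68 members had the same versioned identifier. Named genes were the 10 members of highest mean CPM, the 5 largest rises and falls called with 1 direction in all 5 pairs, H1-1 to H1-5, and set members of 8 lists with the 3 largest called in each. Others are named where a count of few needs it or to show the rest of a marker list. The result of 1 list gene is not reported here on its own, though list counts include it. Members and lists were chosen with earlier results of these data known. Alternatives were DESeq2 1.42.0, limma-voom (limma 3.58.1), other scalings and filters, no block, and each replicate left out. The edgeR step was tested on simulated data. Figures used matplotlib 3.10.9.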

Additional observations from a re-analysis of the deposited data

Results flagged for a closer look

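A library was singled out where its gap to the nearest other of its group exceeded Dixon's 95% limit, which chance passes in about 1 of 20 groups. This happened 9 times over 134 groups of values, where chance gives 6.7, and 5 of the 9 were in control replicate 3. That library was low for H2BC21 (2.77 CPM, others 4.83 to 5.35) and for the summed H3 genes (8.28 CPM, others 13.3 to 15.1). It was high for H2AC25 (4.07 CPM, others 2.25 to 2.68), H2AJ (44.4 CPM, others 24.7 to 28.3) and H1-10 (79.6 CPM, others 59.6 to 65.0). Irradiated replicate 2 was high for H3C6 (17.8 CPM, others 15.1 to 15.6) and DCN (4.45 CPM, others 0.454 to 1.61) and low for the sum of the members under 200 counts (1.42 CPM, others 1.81 to 1.96). Irradiated replicate 1 was low for H4C3 (1.62 CPM, others 1.91 to 2.03).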

How the results depend on the processing

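Of 18 member calls, 14 (12 higher, 2 lower) held in all 12 alternatives set at the outset. H2AC15 was lost with DESeq2, with library size only and without replicate 1, 2, 3 or 5, H3C10 without replicate 1, 3 or 5, H2BC6 without replicate 1 or 4, and H2BC6 and H1-4 with no replicate block, where 14 members were higher and 2 lower. H2BC18 became lower without replicate 3 and in the fits on replicates 2, 4 and 5 described next. Leaving out 1 replicate gave 12 to 14 higher and 3 to 4 lower on the same 19006 genes. Only the minimum of 1 count moved a member count by over 1.5 times, to 9 lower.

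Some alternatives were added after the results had been seen. Leave-one-out was first run with the minimum of 200 counts applied again to the remaining samples. H4C1 then dropped below the minimum and out of the test without replicate 2, 3, 4 or 5; the version on fixed genes was adopted knowing this, and it makes H4C1 look more stable. With the minimum reapplied there were 12 to 14 higher and 2 to 3 lower. Replicates 2, 4 and 5 alone, chosen because control replicates 1 and 3 were low in S phase genes, gave 10 higher and 3 lower of 22 members, and 11 higher and 19 lower of 67 with a minimum of 1 count. That choice is tied to the outcome, so the 19 falls support nothing. Over these and the first 12 alternatives 11 calls held.

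S phase genes called lower numbered 10 to 25 when 1 replicate was left out, with the lowest counts, 14, 11 and 10, without replicates 2, 4 and 5. Processing factors called higher numbered 0 with upper-quartile scaling, library size only or no block and 0 to 3 with 1 replicate left out, and those called lower 2 to 5. Decay factors called lower numbered 2 with library size only, and 1 was higher with limma-voom. Tubule markers called higher numbered 3 with DESeq2 and with a minimum of 1 count, 2 with limma-voom and 1 to 4 with 1 replicate left out, and those called lower 1 with no block and 1 to 2 with 1 left out. Untailed RNAs called higher numbered 3 without replicate 4 and 1 with any other replicate left out.

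Values near 0 changed sign. H2AC25 gave -0.09 to 0.11 with 1 replicate left out (0.001, 0.11 and 0.04 without replicates 2, 3 and 4), 0.0002, 0.11 and 0.04 with the minimum reapplied, and 0.01 in replicates 2, 4 and 5. ERI1 gave -0.01 with upper-quartile scaling and a minimum of 1 count, -0.05 with library size only, -0.06 and -0.05 without replicate 1 (range with 1 left out -0.06 to 0.08), and -0.12 and -0.14 in replicates 2, 4 and 5. MACROH2A1 gave -0.005, -0.05 and -0.01 under the first 3 of these and -0.01 and -0.03 in replicates 2, 4 and 5. Among the other genes named, calls of CDH1, CSTF2, NPAT and H3-3B were lost as the report gives them, H2AJ with no replicate block (adjusted p = 0.0900) and CHAF1A without replicate 5 (adjusted p = 0.0502). The cause of these changes was not tested. Library size only moved the median of all genes to -0.086. An extension limit of 500 bases left 8 higher of 11 tested extended members and brought those ending at the stem-loop to 7 higher of 14 (median 0.46).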
